A study of Rattus norvegicus with 8 samples.

Results

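A set of 7 genes of the CSF1 axis and of macrophages was followed in rat granulosa cells, the hormone-producing cells that surround the oocyte in an ovarian follicle. They were Csf1, Csf1r, C1qc, Mrc1, Cd14, Lgals3 and Gpnmb, chosen by gene name, with their signals on these arrays already known, from the probe sets whose platform annotation named exactly 1 of them. This gave 7 of 14217 named genes and 10 of 31099 probe sets: 4 probe sets for Csf1 and 1 for each of the other 6 genes. Because earlier values of the same arrays were in view when the genes were chosen, their spread over the arrays is a description and not a test.

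The study compared immature rats given 2 treatments. Under the first, animals received eCG (equine chorionic gonadotropin, a hormone that makes follicles grow) and, 24 h later, an antibody against eCG, which drives follicles into atresia, the degeneration of a follicle. Under the second, pre-immune serum took the place of the antibody and follicles went on growing; both treatments therefore included eCG. Oocytes of the antibody animals gave 0% development to term and those of the serum animals 30 to 50%, per the series' design text. Total RNA of granulosa cells was measured on 8 Affymetrix arrays, numbered 2074, 2076 and 2194 to 2199, and the labels do not say which array came from which treatment, whether RNA of several animals was pooled, or which arrays are replicates. No comparison of treatments was therefore made, no group mean or error is given, and each array is reported by its own value.

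CSF1 (macrophage colony-stimulating factor) is the secreted ligand of CSF1R, a receptor tyrosine kinase on monocytes and macrophages. Signalling through the receptor keeps these cells alive and lets them multiply and mature. In the ovary, macrophages lie in the stroma and theca, enter degenerating follicles and corpora lutea, and clear dying cells. A whole-tissue or whole-preparation signal of a macrophage gene can differ because the preparation held more such cells or because each cell held more of the RNA, and an array cannot tell these apart.

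Signals below are deposited intensities after a scaling of the arrays to each other, on a linear scale. The floor of an array is the 40th percentile of its probe sets, below which a signal was treated as too dim to rank. Floors lay between 273.6 and 472.1, with the highest on array 2195, 384.9 on array 2198, and at most 335.6 on the other arrays. The inner range is the second highest over the second lowest array, with any dimmer signal set equal to the floor, so that it does not rest on the single highest and lowest array. A gene counted as measured when its brightest probe set lay above its array's median on at least 2 arrays. All 7 genes were measured, 4 of them above the floor on all 8 arrays. The signals of different probe sets are not on a common scale, so genes were not ranked by abundance. Brightness served only to choose and name the probe sets of a gene, and signals summed over a list are given as rough totals that its brightest genes dominate.

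The ligand Csf1 varied widely by its brightest probe set, which stands for the gene below. Whether that probe set measures Csf1 was not tested, since probe sequences were not used here, and the other 3 probe sets of the gene differ from it. The brightest (1380582_at) had 28876 on array 2074, 72533 on 2076, 79157 on 2194, 7381 on 2195, 70685 on 2196, 41526 on 2197, 7909 on 2198 and 26031 on 2199. Arrays 2195 and 2198 stood low, and the other 6 arrays were all at or above 26031. The inner range was 9.17-fold and the whole range 10.7-fold, and the probe set lay at the 93.7th percentile or higher on every array. The inner range rested on the 2 low arrays together: without array 2195 it was 2.78-fold and without array 2198 it was 2.79-fold.

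The other 3 probe sets of Csf1 gave different patterns. The second brightest (1380583_s_at), which shares its annotated accession with the brightest, had 878.5 on array 2074, 1826 on 2076, 1923 on 2194, 1684 on 2195, 1310.0 on 2196, 1100 on 2197, 1495 on 2198 and 1434 on 2199, an inner range of 1.66-fold. Arrays 2195 and 2198 lay above the median of these values, not at the bottom. The third brightest (1369354_at) had 976.1 on array 2074, 328.1 on 2076, 725.0 on 2194, 781.2 on 2195, 272.9 on 2196, 365.7 on 2197, 1161 on 2198 and 997.8 on 2199, an inner range of 3.04-fold. Here array 2198 was the highest, and array 2076, the second highest by the brightest probe set, was the second lowest. The dimmest (1379631_at) lay between 171.9 and 639.2, with a median of 268.1, was at the floor on 6 arrays and above the array's median on 0.

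Over the 8 arrays, the log2 signal of the brightest probe set correlated with that of the second at Pearson r = 0.042, with the third at r = -0.670 and with the dimmest at r = -0.675. These are descriptions over 8 arrays, and the last of them rests on values mostly at the floor. Weak agreement between probe sets was common on these arrays: over 2657 genes with at least 2 measured probe sets, the brightest 2 had a median r of 0.163, and 40.9% of these genes had an r at or under the 0.042 of Csf1. The brightest Csf1 probe set also ran against the arrays' floors, with r = -0.787, and the other 3 had a positive r with them, before any value was raised to the floor, at r = 0.438 for the second brightest, 0.530 for the third and 0.669 for the dimmest. What part of the Csf1 values follows this difference between arrays was not tested.

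**Figure D1:**
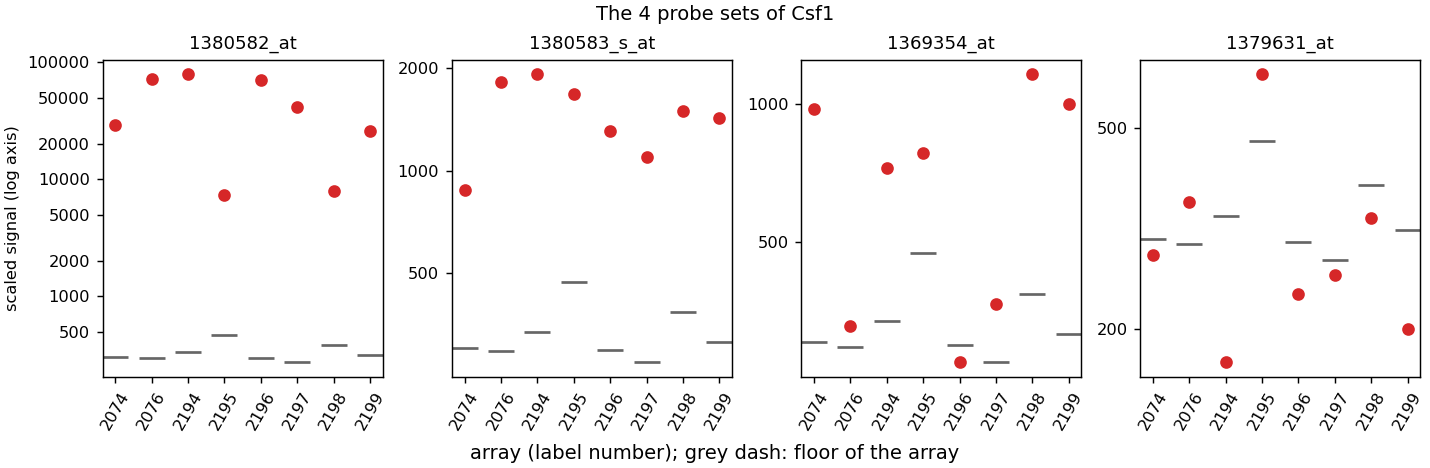
Scaled signal (log axis, each panel with its own range) of the 4 probe sets of Csf1 on the 8 arrays. Red points are single arrays and grey dashes the floor of each array. Arrays 2195 and 2198 are lowest for the brightest probe set (leftmost panel), at 7381 and 7909, and are not lowest for any of the other 3 probe sets.

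The receptor Csf1r was low on the 2 arrays with the lowest label numbers. Its probe set, 1388784_at, had 179.0 on array 2074, 525.6 on 2076, 1890 on 2194, 1750 on 2195, 1481 on 2196, 871.8 on 2197, 1551 on 2198 and 1390.2 on 2199. The value on array 2074 was under the floor, and the inner range was 3.33-fold. Over arrays 2194 to 2199 alone it was 1.25-fold, and without array 2074 or array 2076 it was 1.992-fold or 1.997-fold.

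C1qc and Mrc1 were seen on some arrays and lay at or near the floor on the others. C1qc encodes the C chain of C1q, the complement protein that macrophages make and that tags dying cells. Its probe set, 1373025_at, had 792.8 on array 2074, 47.0 on 2076, 22.4 on 2194, 1103 on 2195, 355.2 on 2196, 96.2 on 2197, 100 on 2198 and 516.7 on 2199. It was under the floor on arrays 2076, 2194, 2197 and 2198, so its inner range is given as at least 2.69-fold. That bound rests on single arrays, being 1.75-fold without array 2074 and 1.76-fold without array 2195, and it was 1.54-fold over arrays 2194 to 2199 alone.

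Mrc1 encodes the macrophage mannose receptor (CD206), which takes up glycoproteins. Its probe set, 1392648_at, had 1450.2 on array 2074, 343.2 on 2076, 323.3 on 2194, 854.4 on 2195, 669.3 on 2196, 195.2 on 2197, 173.4 on 2198 and 1090.4 on 2199. It was under the floor on arrays 2194, 2197 and 2198, and its inner range was at least 3.25-fold. The arrays where C1qc was above the floor, 2074, 2195, 2196 and 2199, were also the highest 4 for Mrc1. Neither these 4 arrays nor the other 4 are enough for a correlation of their own.

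The remaining 3 markers were above the floor on every array. Cd14, the co-receptor for bacterial lipopolysaccharide on monocytes and macrophages, had a lowest signal of 924.0 on array 2196, a median of 1403 and a highest of 1885 on array 2198, with an inner range of 1.60-fold. Lgals3 encodes galectin-3, a lectin that macrophages hold in quantity but other cells make too. It had a lowest signal of 2537 on array 2195, a median of 4374 and a highest of 7342 on array 2076, with an inner range of 2.04-fold. Gpnmb encodes a membrane glycoprotein of lysosome-rich phagocytes. It had a lowest signal of 476.4 on array 2197, a median of 687.8 and a highest of 2084 on array 2199. Its inner range was 1.95-fold and its whole range, which takes in array 2199, was 4.37-fold.

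The stretches of 250 bases before the annotated starts of Mrc1 and Gpnmb are shown because these genes had a positive correlation over the arrays, given below, and because transcription factors of macrophages are known to bind the 2 short motifs marked. The sequences are RefSeq's for the build GRCr8, from the plus strand, which is the strand of both genes. Of the 7 genes, 4 had an entry in the RefSeq promoter table, of which 2, Mrc1 and Gpnmb, are printed. The entries of Csf1r and Cd14 are not shown, and Csf1, C1qc and Lgals3 had none. Capitals mark GAGGAA, a motif of the kind bound by the ETS factor PU.1, and CATGTG, an E-box of the kind bound by MITF and TFEB, each on either strand.

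The promoter of Mrc1 lies at chr17:82157475-82157724 and that of Gpnmb at chr4:79340878-79341127.
Mrc1: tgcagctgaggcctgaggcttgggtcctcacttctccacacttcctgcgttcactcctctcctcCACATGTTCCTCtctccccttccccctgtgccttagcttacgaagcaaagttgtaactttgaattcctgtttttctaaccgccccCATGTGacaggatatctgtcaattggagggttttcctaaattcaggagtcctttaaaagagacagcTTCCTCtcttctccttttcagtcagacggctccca
Gpnmb: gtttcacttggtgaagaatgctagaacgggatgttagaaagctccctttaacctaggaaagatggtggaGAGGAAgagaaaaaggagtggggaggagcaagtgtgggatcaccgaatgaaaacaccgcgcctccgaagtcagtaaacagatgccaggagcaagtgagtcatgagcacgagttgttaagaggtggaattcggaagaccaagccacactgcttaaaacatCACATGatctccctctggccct

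In Mrc1, GAGGAA began 180 and 35 bases before the start, both on the minus strand. CATGTG began 186 bases before it on the minus strand, ending next to the first GAGGAA without overlap, and 101 bases before it on the plus strand. In Gpnmb, GAGGAA began 181 bases before the start on the plus strand and CATGTG 22 bases before it on the minus strand. Among 33469 RefSeq promoters of the same length, 23.3% held GAGGAA, 12.1% held CATGTG and 2.8% held both. A match is a run of letters and shows no binding. The 2 promoters were picked for the correlation of their genes, so nothing is read from their matches beside these shares.

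**Figure D2:**
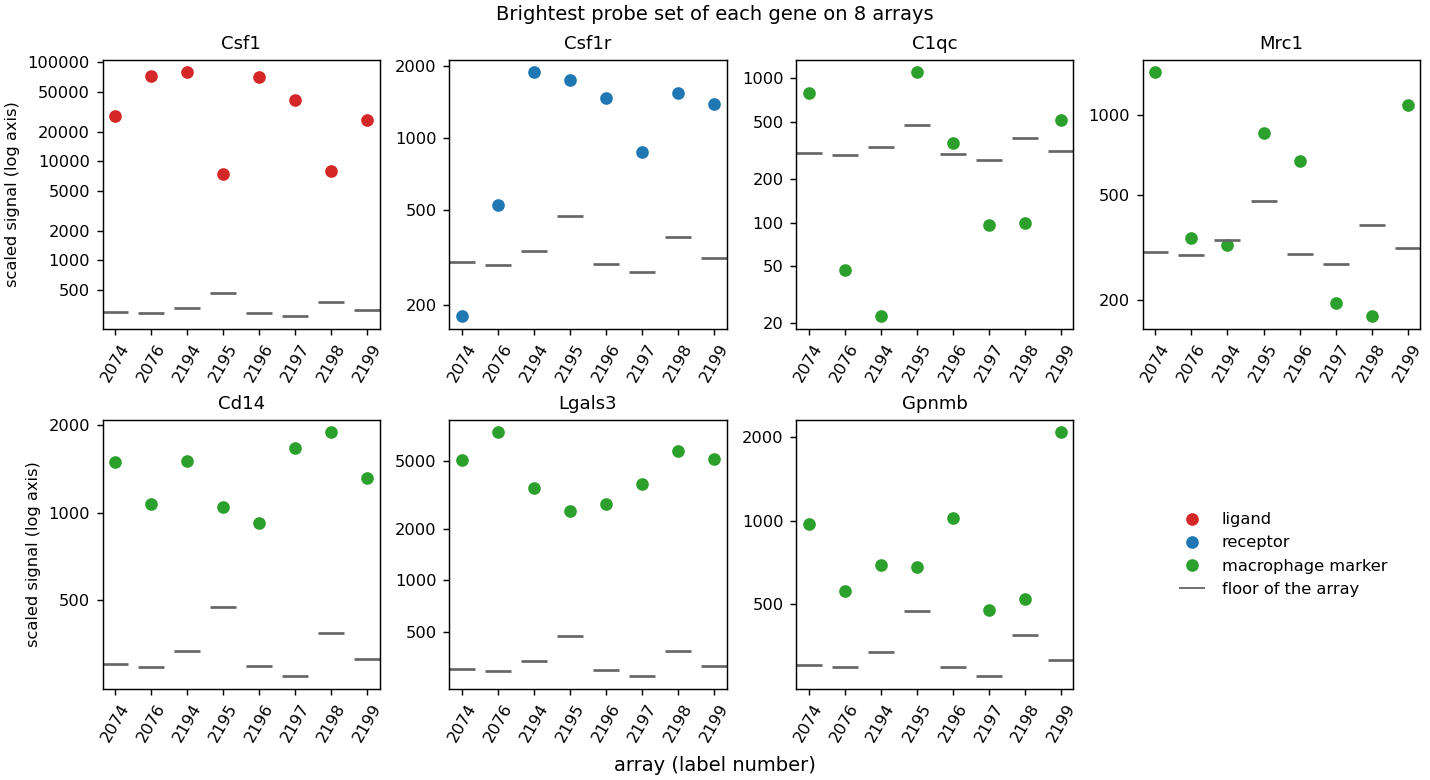
Scaled signal (log axis, each panel with its own range) of the brightest probe set of each of the 7 genes on the 8 arrays, with the floor of each array as a grey dash. Csf1 (red) is lowest on arrays 2195 and 2198, Csf1r (blue) on arrays 2074 and 2076, and among the markers (green) C1qc is under the floor on 4 arrays and Mrc1 on 3.

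Of the 7 genes, 5 reached 2-fold in inner range (Csf1, Csf1r, C1qc, Mrc1 and Lgals3), where 29.7% of the 10471 measured genes did. Their median inner range was 2.69-fold, against 1.71-fold over all measured genes. The genes had been picked with these values known, so nothing is read from that difference. The count also depends on the arrays, and the share of all measured genes that reached 2-fold fell with arrays left out as well. It was 3 without array 2074 (18.7% of measured genes), array 2076 (18.7%) or array 2195 (21.8%). Over arrays 2194 to 2199 alone the count was 2, where 11.9% of measured genes reached 2-fold. The choice of probe set matters too. The count was 4 with the next brightest probe set (32.6% of measured genes) and 4 with the mean of probe sets (23.3%), Csf1 being under 2-fold by both.

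**Figure D3:**
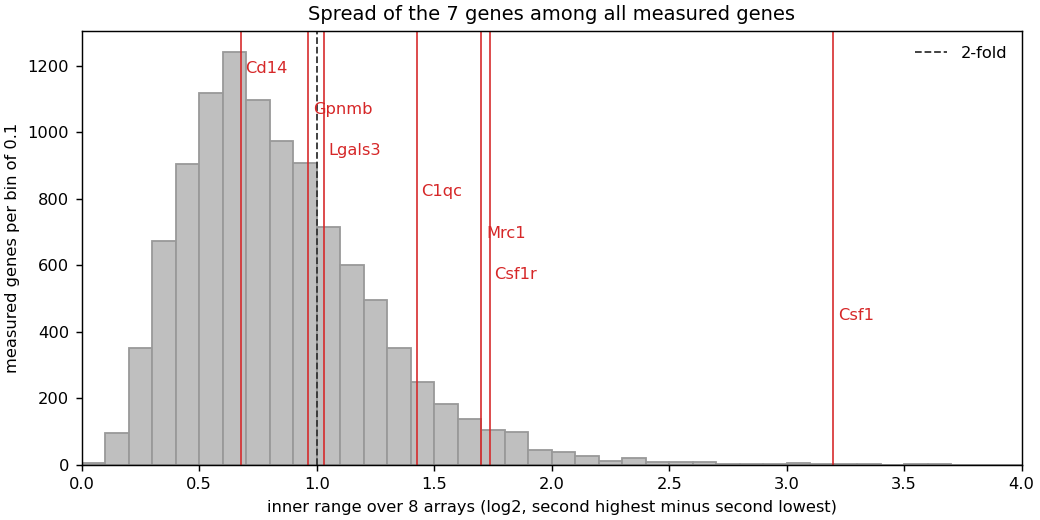
Number of measured genes per bin of 0.1 (y axis) by inner range over 8 arrays on the log2 scale (x axis), with the 7 genes as red lines and 2-fold as a dashed line. Cd14 and Gpnmb lie under 2-fold, Lgals3 just over it, and Csf1 at 9.17-fold, while C1qc and Mrc1 stand at lower bounds.

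The ligand was next set against the receptor and the markers. C1qc had the lowest correlation with Csf1, at Pearson r = -0.637 and Spearman rho = -0.738 over 8 arrays. The exact two-sided permutation p-values were 0.0826 and 0.0458, and 0.743 and 0.993 after Benjamini-Hochberg adjustment over all measured genes. Over all measured genes, 7.13% had an unadjusted p under 0.05 for r with Csf1, which is 746 genes, and 0% had an adjusted p under 0.05. The smallest p that 8 arrays allow is 4.96e-05. Without arrays 2195 and 2198, the 2 farthest from the Csf1 median, r with C1qc was -0.709 (exact permutation p = 0.121).

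Like C1qc, the other members showed no relation to Csf1 that passed the adjusted test. Csf1r had r = -0.237 and rho = -0.095 with Csf1 (exact permutation p = 0.596 and 0.840). Mrc1 had r = -0.298 and rho = -0.548 (exact permutation p = 0.454 and 0.171). Cd14 had r = -0.261 and rho = -0.048 (exact permutation p = 0.515 and 0.935). Lgals3 and Gpnmb both had r = 0.072, with rho = 0.071 for Lgals3 and 0.048 for Gpnmb (exact permutation p for r = 0.856 for Lgals3 and 0.878 for Gpnmb, and for rho = 0.882 and 0.935). The adjusted p for r was 0.958 or higher for these 5 genes. Without arrays 2195 and 2198, r was 0.365 for Csf1r, -0.688 for Mrc1, -0.449 for Cd14, -0.264 for Lgals3 and -0.564 for Gpnmb, so that the sign turned for Csf1r, Lgals3 and Gpnmb. With 6 arrays left, none of these passed the test either, the lowest exact permutation p being 0.154.

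The direction of the relation also depended on which Csf1 probe set was read. With the third brightest in place of the brightest, r was 0.568 for C1qc, 0.453 for Mrc1, 0.534 for Cd14 and 0.122 for Csf1r, all of the opposite sign. With the second brightest, r with Csf1r was 0.602. The floor enters too. A gene under the floor on every array takes on the floor's own values, which are highest on arrays 2195 and 2198, where the brightest Csf1 probe set is lowest. Ptprc, the common leukocyte antigen CD45, was under the floor on all 8 arrays and had the same r with Csf1 as the floor itself, -0.787. C1qc was under the floor on 4 arrays, and with no floor its r with Csf1 was -0.511, against -0.637 with it. Mrc1 was under the floor on 3 arrays, and with no floor its r with Csf1 was -0.056, against -0.298 with it.

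**Figure D4:**
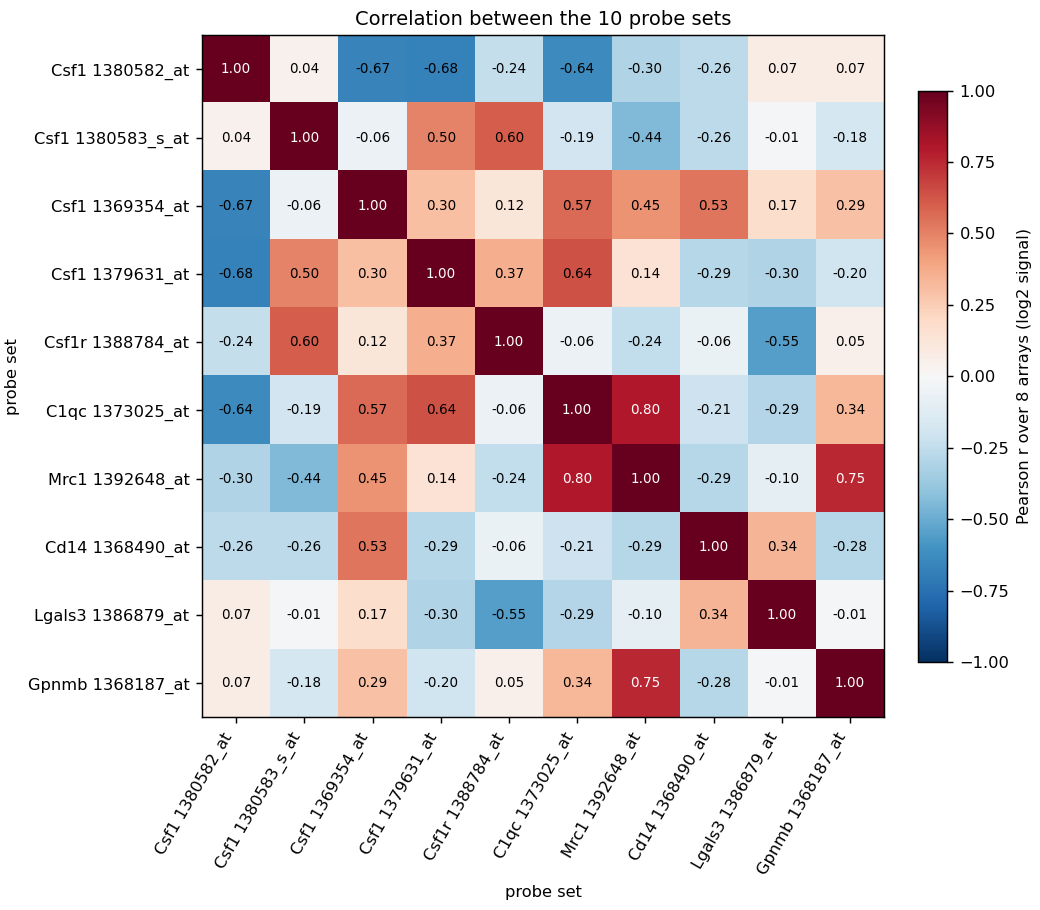
Pearson r over 8 arrays (colour scale and printed values, log2 signal) between the 10 probe sets. The first column, for the brightest Csf1 probe set, and the third column, for the third brightest, have opposite signs for Csf1r, C1qc, Mrc1 and Cd14, and the highest r between 2 genes is 0.80, for Mrc1 and C1qc.

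Among the markers, Mrc1 had its highest r with C1qc and with Gpnmb, and neither relation passed the adjusted test. Mrc1 and C1qc had r = 0.802 and rho = 0.881 (exact permutation p = 0.0137 and 0.00724, adjusted p for r with Mrc1 = 0.9998, for rho = 0.9987). Without arrays 2074 and 2199, the 2 farthest from the Mrc1 median, r was 0.816 (exact permutation p = 0.0194). Over arrays 2194 to 2199 alone it was 0.708 (exact permutation p = 0.0875), and with each array left out in turn it lay between 0.739 and 0.922. On arrays 2194, 2197 and 2198 both genes were under the floor and were given the same values, which builds in part of their agreement. With no floor r was 0.788 (exact permutation p = 0.0290), and rho was not computed without the floor.

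Mrc1 and Gpnmb had r = 0.754 and rho = 0.690 (exact permutation p = 0.0219 and 0.0694, adjusted p for r = 0.9998). Without arrays 2074 and 2199 r was 0.685 (exact permutation p = 0.135), and over arrays 2194 to 2199 alone it was 0.804 (exact permutation p = 0.0389). Leaving out each array in turn gave r between 0.697 and 0.819. C1qc and Gpnmb had r = 0.335 and rho = 0.476 (exact permutation p = 0.420 and 0.243). Without arrays 2074 and 2195, the 2 farthest from the C1qc median, their r was 0.848 (exact permutation p = 0.0403).

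Of the 21 pairs of the 7 genes, these 2 had an unadjusted p under 0.05 and 0 had an adjusted p under 0.05. Over all measured genes, 2.15% (225 genes) had an unadjusted p under 0.05 for r with Mrc1 and 0% an adjusted one. Of the 10 pairs among the 5 markers, 4 had a positive r. Cd14 had r = -0.207 with C1qc, -0.289 with Mrc1 and -0.283 with Gpnmb. Cd14 and Lgals3 had r = 0.339, and Csf1r and Lgals3 had r = -0.549 (exact permutation p = 0.164).

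**Figure D5:**
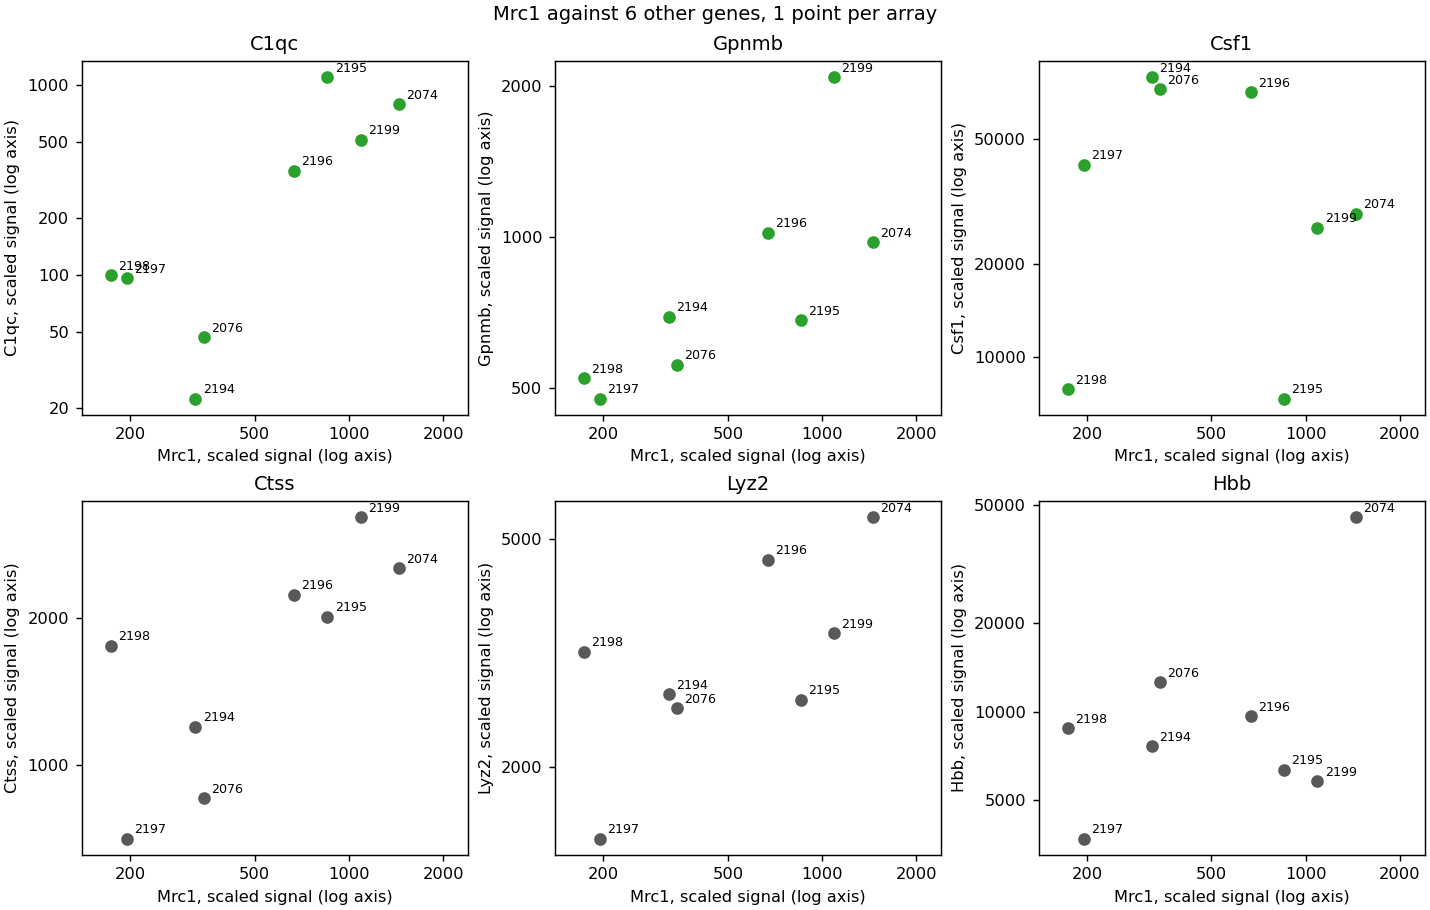
Scaled signal of Mrc1 (x axis, log) against 6 other genes (y axes, log), before any floor, with 1 labelled point per array. Green marks genes of the set of 7 and grey other genes. C1qc and Ctss are highest on arrays 2074, 2195, 2196 and 2199, where Mrc1 is highest. Gpnmb is high on these arrays except 2195 (682.5, under its median of 687.8), and Hbb stands apart on array 2074 at 45618.

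Other macrophage markers were looked at through a list of 24 genes. Of these 19 were named on the array and 11 were measured. Several defining markers were too dim to count as measured, namely Ptprc, Tyrobp, Adgre1, Cx3cr1, Itgam, Trem2, Ms4a7 and Cd53. Of the 11 measured, 4 reached 2-fold in inner range, where 29.7% of all measured genes did. They were Ctss, the lysosomal protease cathepsin S, at 2.95-fold, Mpeg1, a pore-forming protein of phagocytes, at least 2.64-fold, C1qa, the A chain of C1q, at least 2.47-fold, and Aif1, a calcium-binding protein of macrophages, at least 2.37-fold. C1qa was under the floor on 5 arrays, Mpeg1 on 3 and Aif1 on 1, so these folds are lower bounds. The count was 8 with no floor (39.3% of measured genes) and 1 over arrays 2194 to 2199 alone (11.9%).

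Of the 11 measured macrophage markers, 10 had a positive r with Mrc1 and the median was 0.379, where 52.5% of all measured genes had a positive r and their median was 0.021. Ctss had r = 0.882, Laptm5, a lysosomal membrane protein of blood cells, 0.802, Lyz2, the macrophage lysozyme, 0.747, and C1qa 0.675. Ctss was above the floor on all 8 arrays, with a lowest signal of 709.1 on array 2197, a median of 1883 and a highest of 3208 on array 2199. Laptm5 was under the floor on 4 arrays. A positive r with Mrc1 was common in some other lists too. It was found for 8 of 9 granulosa, 7 of 7 theca and stroma and 4 of 5 lymphocyte markers, with medians of 0.197, 0.253 and 0.10. The 3 erythroid markers had a median of 0.518, with 2 of 3 positive and a lowest r of -0.492. Shares were lower for genes that relay the receptor's signal (5 of 11, median -0.212) and for clearance of dying cells (9 of 14, median 0.041). They were 4 of 7 for antigen presentation (median 0.139), 2 of 3 for endothelial markers (0.106) and 3 of 4 for the wider ligand and receptor family without the members (0.114). Ptprc, under the floor on all 8 arrays, had r = 0.180 with Mrc1, which is the floor's own. The exception among the macrophage markers was Cd68, a lysosomal glycoprotein of macrophages, with r = -0.427, a lowest signal of 189.5 on array 2195 and a highest of 933.7 on array 2198. The summed signal of the 11 markers lay between 5038 on array 2197 and 12977 on array 2074.

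Some markers of red blood cells were high on array 2074, where Mrc1 was highest. Hbb, the beta chain of haemoglobin, had 45618 on array 2074 and between 3711 and 12574 on the others. Alas2, the first enzyme of haem synthesis in red cells, had 3188 on array 2074 and at most 669.1 elsewhere. Slc4a1, the anion exchanger of red cells, had its lowest signal, 26.5, on array 2074. Without array 2074, r was 0.739 for Mrc1 and C1qc and 0.819 for Mrc1 and Gpnmb (exact permutation p = 0.0333 and 0.0143). Of the erythroid list of 5 genes, 4 were named and 3 measured, and its summed signal lay between 4283 on array 2197 and 48832 on array 2074.

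Markers of other leukocytes were measured in part. Of 8 neutrophil genes 6 were named and 0 were measured. Of 9 lymphocyte genes 5 were measured, 2 of them reaching 2-fold, where 29.7% of all measured genes did. The count was 0 without array 2195 (21.8% of measured genes) or array 2198 (23.3%). The summed signal of the 5 measured genes was highest, at 5878, on array 2195, which also had the highest floor (472.1). Of the 5, Cd2 was under the floor on 6 arrays, Cd8a on 4, Cd3d on 3, Cd3g on 2 and Lck on 0. What part of the sum follows the floor was not tested. Of 8 genes of dendritic cells and antigen presentation 7 were measured and 4 reached 2-fold, against the same 29.7%. Without array 2198 it was 2 (23.3% of measured genes). RT1-Ba, a class II histocompatibility chain, had at least 3.41-fold and was under the floor on 3 arrays.

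The labelled cell type was checked with markers of granulosa cells. All 9 named of 10 listed were measured, among them Cyp19a1, the aromatase that makes oestrogen, with a lowest signal of 986.9 on array 2076, a median of 10744 and a highest of 20587 on array 2198. Inha, the inhibin alpha subunit, lay between 26740 and 90360, and Foxl2, a transcription factor of the lineage, between 3576 and 10412. Of the 9 granulosa markers 6 reached 2-fold, where 29.7% of all measured genes did, and 3 did without array 2076 (18.7% of measured genes). Theca and stroma markers were measured for 7 of 9 genes and reached 2-fold for 3, against the same 29.7%, and for 1 without array 2074 (18.7%). The widest of them was Col3a1, a fibrillar collagen, at 3.83-fold. Endothelial markers were measured for 3 of 7 genes. What part of the spread of the 7 genes follows these other cell types was not tested.

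In the wider family of ligands and receptors, 6 of 10 listed genes were measured and 5 reached 2-fold, Csf1 and Csf1r among them, where 29.7% of all measured genes did. The count was 2 without array 2074 (18.7% of measured genes), 3 without array 2076 (18.7%) and 2 over arrays 2194 to 2199 alone (11.9%). With the next brightest probe set it was 3 (32.6%), and with the mean of probe sets 3 (23.3%). Csf2ra, the alpha receptor for granulocyte-macrophage colony-stimulating factor, had at least 2.69-fold in inner range, with 2 arrays under the floor, and Csf2rb, its shared beta chain, 2.15-fold. Sdc1, the proteoglycan syndecan-1, had 2.25-fold. Il34, the second known ligand of the CSF1 receptor, had at least 1.80-fold, was under the floor on 4 arrays, and had a lowest signal of 107.6 on array 2076, a median of 238.8 and a highest of 731.2 on array 2195. Csf2, Csf3, Csf3r and Ptprz1 were not measured.

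Of 23 listed genes that relay the receptor's signal, 18 were named, 11 were measured and 2 reached 2-fold: Inpp5d, a lipid phosphatase of blood cells with 1 array under the floor, at least 2.16-fold, and Cebpb, a transcription factor, at 2.12-fold, with its highest signal of 25440.5 on array 2076. Over all 8 arrays 29.7% of measured genes reached 2-fold. The count was 1 without array 2074 (18.7% of measured genes), 2076 (18.7%), 2198 (23.3%) or 2199 (23.9%). It was 0 over arrays 2194 to 2199 alone (11.9%). The median inner range of the 11 was 1.72-fold, against 1.71-fold for all measured genes. Of 18 genes that serve the clearance of dying cells, 14 were measured and 5 reached 2-fold, against 29.7% of all measured genes, with a median of 1.90-fold. The count was 3 without array 2074 (18.7% of measured genes) and 2 over arrays 2194 to 2199 alone (11.9%). Wide ones were Anxa1, annexin A1, at 3.45-fold, Scarb1, a scavenger receptor that also imports cholesterol esters in steroid-making cells, at 2.71-fold, and Stab1, a scavenger receptor of macrophages and endothelium, at least 2.63-fold, with 2 arrays under the floor.

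The genes most like each member were sought among 6117 measured genes at the floor on at most 2 arrays and with an inner range of at least 1.5-fold, by Pearson r over 8 arrays. For Csf1 the highest r were 0.942 for Snapc3, 0.928 for Rhobtb3, 0.914 for Unk, 0.912 for Snx14 and 0.890 for Plekha1. The lowest were -0.954 for Cdc42ep1, -0.954 for Traf3ip3 and -0.952 for Tbc1d19. These genes share with Csf1 the contrast of arrays 2195 and 2198 with the rest: Snapc3 had 1501 and 1477 on these 2 arrays and at least 2201 on the others. For several the contrast takes in values raised to the floor. Rhobtb3 (349.4) and Snx14 (55.0) were under the floor on array 2195, and Unk (342.2) on array 2198. Traf3ip3 was under it on arrays 2076 and 2194 and Tbc1d19 on arrays 2076 and 2196. What part of these correlations follows the floor was not tested. For Csf1r the highest were 0.979 for Siae, 0.978 for Nuf2 and 0.976 for Arid2.

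Among the markers, C1qc was most like Cys1 (0.972), Asb3 (0.971) and Mfsd2a (0.957), and Mrc1 was most like Ring1 (0.902), Lrrc75a (0.885) and Ctss (0.882). Cd14 was most like Ccdc181 (0.967), Dcp1b (0.957) and Fndc3a (0.939), and Lgals3 was most like Ankrd11 (0.954), Tbc1d10b (0.946) and Polg (0.942). Gpnmb was most like Ramp1 (0.957), Bace2 (0.891) and Brd8 (0.847). Each of these was picked as the best of the 6117 genes over 8 arrays, and 0 of them passed an adjusted p of 0.05 by exact permutation, the lowest being 0.195 for Nuf2 with Csf1r.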

How the data were processed

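Total RNA of rat granulosa cells was labelled with biotin and hybridised to 8 Affymetrix arrays, 1 per sample, per the labels' protocols. The deposited table holds linear signal intensity for each probe set. The submitters' processing notes name MAS5 as the tool by which the authors computed it (version not given in the sources used). The 2% trimmed mean was 1500.5 or 1500.6 on each array, so the deposited intensities had been scaled. The number of arrays limits the precision, and no detection calls were used.

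From these deposited intensities log2 values were computed. Arrays were brought to a common median, taken over probe sets brighter than the median of every array, values under the array's 40th percentile were raised to it, and the probe set with the highest mean log2 signal stood for a gene. Printed signals are scaled and taken before the floor. Of 31099 probe sets, 57 controls among them, 20832 had 1 gene symbol in the platform annotation, which can be old, 436 had several and were left out, and 9831 were not listed and stayed unnamed. Identifiers of 20758 probe sets were found in the RefSeq gene table of GRCr8, which changed 0 symbols.

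Labels gave no groups, so every array stayed unassigned. Pearson and Spearman correlations over arrays were tested by exact permutation (40320 orders, two-sided) with Benjamini-Hochberg adjustment over the measured genes. Python 3.11.15 was used with numpy 2.4.6, pandas 2.3.3 and scipy 1.17.1. The test of Pearson r, but not that of Spearman rho, was tried on simulated data. In these the arrays were put in random order for each gene, which does not keep the floor that genes share on an array. The members, gene lists and tests were chosen with earlier results of these data known. Named are the members with every probe set, the 5 genes most and 3 least like Csf1, the 3 most like each other member, up to 3 of each list with the widest inner range, and Ptprc, Cd68, Il34, Cyp19a1, Inha and Foxl2. Others of a list were named to complete a count of 5 or fewer or for their correlation with Mrc1, after their values were seen. Alternatives were other scalings, floors, filters, probe sets, a pseudocount of 100, Spearman correlation, the full range, and fewer arrays.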

Additional observations from a re-analysis of the deposited data

Results flagged for a closer look

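A single array far from the other 7, by Dixon's ratio at its 95% critical value for 8 values, was found for 4 of 68 probe sets and genes. The ratio was taken on log2 signals after dim values were raised to the floor, which narrows the spread of the other arrays. The rate of about 1 in 20 that chance gives need not hold for such values. The dimmest Csf1 probe set was at the floor on 6 arrays, Cd8a and Slc4a1 on 4 each and Alas2 on 2. Signals printed here are before the floor. Among the members the flagged probe set was the dimmest of Csf1, with 639.2 on array 2195 against 171.9 to 357.1 on the others. In the lists it was Alas2 with 3187.5 on array 2074, against 88.4 to 669.1 on the others. Cd8a, a T cell co-receptor, had 1151.5 on array 2195, against 46.2 to 518.7 on the others. Slc4a1, the anion exchanger of red cells, had 912.8 on array 2194, against 26.5 to 483.6 on the others. The causes were not tested.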

How the results depend on the processing

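No paired analysis was possible because the labels give no groups. The 6 correlations of Csf1 were recomputed 116 times under the 20 of 22 alternatives that bear on them. In 15 of these the sign turned and in 0 was the adjusted p under 0.05, the lowest being 0.2953. Quantile normalization gave r = 0.043 with Cd14. The mean of probe sets gave 0.144 with Csf1r. The next brightest Csf1 probe set gave 0.602 with Csf1r, -0.015 with Lgals3 and -0.176 with Gpnmb. The third brightest Csf1 probe set, added after seeing the data, gave 0.122 with Csf1r, 0.568 with C1qc, 0.453 with Mrc1 and 0.534 with Cd14. Arrays 2194 to 2199 alone gave -0.220 with Lgals3. Leaving out each array in turn gave r from -0.451 to -0.056 with Csf1r, -0.874 to -0.362 with C1qc, -0.557 to -0.179 with Mrc1, -0.663 to 0.11 with Cd14, -0.393 to 0.344 with Lgals3 and -0.150 to 0.228 with Gpnmb. Without array 2198 the r with C1qc was -0.874 (exact permutation p = 0.0109, adjusted 0.675). Without it Cd14 also turned sign, as did Gpnmb, and so did Gpnmb without array 2196 and Lgals3 without array 2076 or 2195.

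The count of members that reached 2-fold in inner range was 2 over arrays 2194 to 2199 (11.9% of measured genes did). It was 2 of 3 members left by a filter on all arrays (19.3%), 6 under quantile normalization (27.7%) and 7 by the full range (71.3%). When each array was left out it lay between 3 and 5 (18.7% to 25.1%). The inner range of Csf1 was 1.31-fold with the mean of probe sets. The inner range of C1qc was 16.9-fold and that of Mrc1 5.59-fold with no floor, since both hold values that were raised to it. Correlations of Mrc1 stayed between 0.708 and 0.922 with C1qc and between 0.690 and 0.819 with Gpnmb. The unadjusted exact permutation p for Mrc1 with Gpnmb was above 0.05 without array 2076 (0.0571), 2197 (0.0691) or 2198 (0.0524), and that for C1qc without array 2197 (0.0544). Macrophage markers with a positive r with Mrc1 were 6 of 7 with the mean of probe sets. Of the 5 genes most like Csf1, 0 to 3 remained under 15 of 19 alternatives (0 without array 2198) and 4 or 5 under the other 4. The dimmest Csf1 probe set was never above the median and did not count as measured, so its correlations were not among those recomputed here. The cause of these changes was not tested.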
